A study of Rattus norvegicus with 372 samples.

Results

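The genes described here are a set of apolipoproteins and Mttp, the microsomal triglyceride transfer protein that loads lipid onto nascent lipoproteins. The set listed 10 genes, Apoa1, Apoa2, Apoa4, Apoa5, Apob, Apoc2, Apoc3, Apoe, Apom and Mttp, and was matched to the probe names of the TempO-Seq whole-transcriptome (WT) assay by gene symbol. The WT assay held 8 of them, each as 1 probe, among 20946 gene symbols in all, and 10191 of these symbols, all 8 genes included, averaged 10 counts or more over the wells and were tested. Apoa4 and Apob were not analysed here. TempO-Seq hybridizes pairs of detector oligos to RNA in cell lysate, ligates them and counts the ligated products by sequencing. The smaller S1500+ surrogate (ST) assay, run on lysates of the same wells, held 5 of the genes (Apoa1, Apoa2, Apoc3, Apoe and Apom).

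The samples were freshly isolated hepatocytes of male Wistar rats, kept in a collagen sandwich in medium with insulin, dexamethasone and EGF and treated for 24 h. Each of the 2 batches came from 1 rat. All vehicle and medium wells of batch 1 were on 1 of its plates. All batch 1 wells of acetaminophen, chloramphenicol, indomethacin, ketoconazole, sulfasalazine and WY14643 were on the other plate. For these chemicals, plate and treatment cannot be told apart in batch 1. A batch had 3 wells per treatment, which are technical replicates of that rat, so p-values over wells mostly measure the spread between wells. The treatments, all in 0.5% DMSO, were acetaminophen at 400 and 10000 µM, caffeine at 400 and 10000 µM, chloramphenicol at 18 and 450 µM, diclofenac at 16 and 400 µM, doxorubicin at 0.08 and 2 µM, indomethacin at 12 and 300 µM, isoniazid at 400 and 10000 µM, ketoconazole at 0.6 and 15 µM, naproxen at 80 and 2000 µM, ranitidine at 160 and 4000 µM, simvastatin at 2.4 and 60 µM, sulfasalazine at 4 and 100 µM, valproic acid at 400 and 10000 µM, and WY14643 at 8 and 200 µM. The vehicle (0.5% DMSO) and the culture medium alone had 3 wells each in batch 1 and 6 wells each in batch 2. The WT counts of a well summed to between 2709504 and 8948654 in batch 1 and between 2289425 and 8975207 in batch 2. The hepatocyte markers Alb and Ttr averaged 13216 and 7090 CPM in vehicle wells (CPM is a gene's count scaled to a total of 1000000 counts in the well). Markers of other liver cells had lower CPM, though CPM of different probes do not compare levels between genes. The highest of each list in vehicle wells were Col3a1 (stellate cells and fibroblasts, 49.2 CPM), Epcam (biliary cells, 37.7 CPM), Cd163 (Kupffer cells, followed by Clec4f at 10.2 CPM) and Pecam1 (endothelial cells, 1.24 CPM), and the lowest of the biliary list, Krt7, was at 0 CPM.

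Lipoproteins carry water-insoluble lipid through blood. In hepatocytes, Mttp lipidates apolipoprotein B in the endoplasmic reticulum to form very-low-density lipoprotein, whose surface also carries apolipoproteins E, C2, C3 and A5. Apolipoprotein C2 activates lipoprotein lipase, apolipoprotein C3 restrains clearance of triglyceride-rich particles, and apolipoprotein A5 favours it. Apolipoproteins A1 and A2 are the main proteins of high-density lipoprotein, and apolipoprotein M carries sphingosine-1-phosphate on it. Apolipoprotein E is a ligand of the low-density lipoprotein receptor family. In the RefSeq gene table of rat assembly GRCr8, Apoa1, Apoc3, Apoa4 and Apoa5 follow one another on chromosome 8, and Apoe and Apoc2 lie on chromosome 1, where Apoc2 is next to Apoc4 and Apoe is next to Apoc1.

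Promoter sequence was held for 4 of the 8 measured genes, and 3 promoters are shown because these genes gave contrasting results under caffeine at 10000 µM, with Apoa5 higher and Apoc2 and Apom lower. Each is the stretch of 250 bases before the annotated RefSeq start in GRCr8, 5′ to 3′ on the gene's strand, and capitals mark matches to the motifs searched. The Apoa5 window is chr8:55457621-55457870 on the plus strand (the upstream of its 2 annotated starts), the Apoc2 window is chr1:88462366-88462615 on the minus strand, and the Apom window is chr20:3695368-3695617 on the plus strand.
Apoa5: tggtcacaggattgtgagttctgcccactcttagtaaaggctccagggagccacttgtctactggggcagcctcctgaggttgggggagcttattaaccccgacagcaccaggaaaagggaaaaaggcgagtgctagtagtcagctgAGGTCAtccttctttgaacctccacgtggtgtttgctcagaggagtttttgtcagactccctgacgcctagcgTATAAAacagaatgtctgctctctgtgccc
Apoc2: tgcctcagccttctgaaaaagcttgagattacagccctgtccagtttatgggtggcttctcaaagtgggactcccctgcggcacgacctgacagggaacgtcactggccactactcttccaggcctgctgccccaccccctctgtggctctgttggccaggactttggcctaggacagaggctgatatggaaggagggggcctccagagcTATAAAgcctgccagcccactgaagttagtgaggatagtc
Apom: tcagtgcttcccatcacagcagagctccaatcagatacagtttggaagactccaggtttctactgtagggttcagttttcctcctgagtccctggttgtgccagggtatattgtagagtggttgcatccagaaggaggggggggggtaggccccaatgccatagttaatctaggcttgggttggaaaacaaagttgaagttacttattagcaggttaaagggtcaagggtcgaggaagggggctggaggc
The motifs, read on both strands, were AGGTCA, a half-site bound by many nuclear receptors, its direct repeat with 1 base between the half-sites, which overlaps AGGTCA, CAAAGTCCA, a sequence of the kind bound by HNF4, and TATAAA. The Apoa5 window held AGGTCA from 103 to 98 bases and TATAAA from 30 to 25 bases before the start. The Apoc2 window held TATAAA from 40 to 35 bases before the start. The Apom window held none of these letters. Among 33469 RefSeq windows of the same length, 14.1% held AGGTCA, 12.9% TATAAA, 0.338% CAAAGTCCA and 0.0508% the direct repeat. These matches describe the letters only.

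Differential expression was computed against vehicle with edgeR's quasi-likelihood test across all 10191 genes with batch as a term, and changes are given as log2 fold change (L2FC) with its standard error. A gene was called when its Benjamini-Hochberg adjusted p was under 0.05 and both batches moved the same way. Over the 28 treatments, 43 of 224 gene and treatment pairs were called higher and 59 lower. Over all genes, 14.8% of pairs were called higher and 14.8% lower. Most calls were at the high concentrations, for these genes as over all genes. There, 27 of 112 pairs were higher (24.8% of pairs over all genes) and 56 lower (25.1% over all genes). At the low concentrations 16 of 112 pairs were higher (4.79% over all genes) and 3 lower (4.46% over all genes). That is 24.1% of the pairs higher, near the share over all genes, and 50% lower at high concentrations. At low concentrations it is 14.3% higher and 2.68% lower. In 77 of the 102 called pairs, no treated well overlapped the vehicle wells of its batch in either batch. When wells were summed so that the rat was the replicate, 73 of the 102 pairs remained called, 20 higher and 53 lower. The shares over all genes for these counts were not computed. Of the 16 rises at low concentrations, those that remained were 2 with WY14643 at 8 µM, 1 with valproic acid at 400 µM and 1 with naproxen at 80 µM. As these are bulk lysates read as shares of all counts, fewer hepatocytes and less of a given RNA per cell cannot be told apart.

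**Figure D1:**
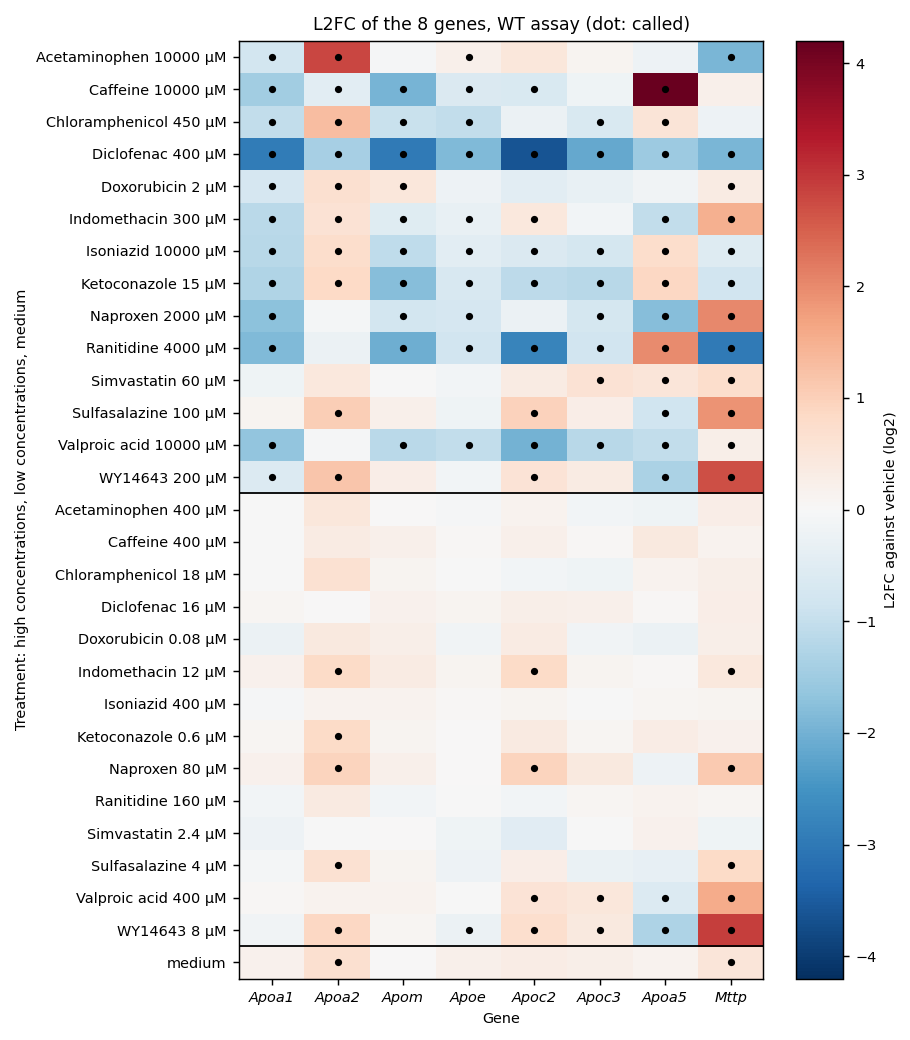
L2FC against vehicle in the WT assay for the 8 genes (columns) under 14 high concentrations, 14 low concentrations and medium alone (rows), on a log2 colour scale with black dots for called pairs. All 8 genes were lower with diclofenac at 400 µM, and Apoa5 with caffeine at 10000 µM (4.16) and Mttp with WY14643 at 8 µM (2.89) were far above vehicle.

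Mttp, the lipid transfer protein of lipoprotein assembly, rose in 12 of the 28 treatments and fell in 5. With WY14643, an activator of the nuclear receptor PPARα, Mttp was 821, 838 and 888 CPM in batch 1 and 978, 1127 and 1097 CPM in batch 2 at 8 µM. The vehicle wells were 179, 176 and 172 CPM in batch 1 and 139 to 151 CPM in batch 2 (median 148), so the groups were far apart in both rats. The L2FC was 2.89 ± 0.10 (SE), a 7.41-fold rise with an adjusted p of 5.5e-64, and 2.66 and 3.07 in batches 1 and 2 by themselves. At 200 µM the L2FC was 2.70 ± 0.10, and the direct contrast of 200 against 8 µM was -0.19 ± 0.11 (adjusted p = 0.308). Naproxen, sulfasalazine and indomethacin raised Mttp at both concentrations in the test over wells. When the rat was the replicate, 8 of the 12 rises and all 5 falls of Mttp remained called, and the rises with sulfasalazine at 4 µM (adjusted p = 0.115), indomethacin at 12 µM (0.594), doxorubicin at 2 µM (0.438) and valproic acid at 10000 µM (0.318) did not. Indomethacin at 12 µM also lost its call against vehicle wells of the same plate (0.41, adjusted p = 0.101). That setting left out the plate of batch 1 that held no vehicle, so for this treatment it rested on batch 2 only. With naproxen at 2000 µM its wells were 612, 600 and 646 CPM and 620, 651 and 652 CPM (L2FC 2.01 ± 0.10), and with naproxen at 80 µM it rose by 1.10 ± 0.10. Sulfasalazine gave 1.89 ± 0.10 at 100 µM and 0.80 ± 0.10 at 4 µM, and indomethacin gave 1.49 ± 0.10 at 300 µM and 0.43 ± 0.10 at 12 µM. The high concentration was above the low one by 0.91 for naproxen, 1.09 for sulfasalazine and 1.06 for indomethacin (adjusted p = 3.7e-13, 2.1e-16 and 2.9e-16 in edgeR).

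Mttp was higher with valproic acid at the low concentration than at the high one. At 400 µM its wells were 452, 398 and 444 CPM in batch 1 and 483, 468 and 444 CPM in batch 2 (L2FC 1.55 ± 0.10). At 10000 µM they were 259, 275 and 265 CPM and 170, 185 and 196 CPM, with an L2FC of 0.25 ± 0.10 that was 0.42 in batch 1 and 0.05 in batch 2. The direct contrast of high against low was -1.30 ± 0.11 (adjusted p = 9.7e-23). The call at 10000 µM was lost with replicate 2 or replicate 3 left out (adjusted p = 0.0525 and 0.0695), where a replicate left out is the well of that number in every treated group and the numbers only name wells. It was also lost with the rat as the replicate, as given above, and against medium wells the L2FC was -0.26 (adjusted p = 0.0175). The remaining rises were with simvastatin at 60 µM (0.75 ± 0.10) and doxorubicin at 2 µM (0.34 ± 0.10, lost without replicate 3 and with the rat as the replicate, and -0.17 against medium wells).

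The falls of Mttp were as large as its rises. With ranitidine at 4000 µM it was 25.3, 19.7 and 27.8 CPM in batch 1 and 14.6, 14.8 and 13.7 CPM in batch 2, a 7.78-fold fall (L2FC -2.96 ± 0.12, adjusted p = 1.9e-55). Acetaminophen at 10000 µM gave wells of 24.4 to 34.6 CPM over both batches (L2FC -1.92 ± 0.11). Diclofenac at 400 µM gave the same L2FC, -1.92 ± 0.11, with 44.3, 72.4 and 68.1 CPM in batch 1 and 29.5, 31.9 and 30.7 CPM in batch 2. Here the batches differed, at -1.56 and -2.37 (edgeR interaction, adjusted p = 9.4e-06), while both lay wholly below vehicle. Ketoconazole at 15 µM (-0.81 ± 0.10) and isoniazid at 10000 µM (-0.54 ± 0.10) gave smaller falls.

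Apoa5, the apolipoprotein that favours clearance of plasma triglyceride, rose in 6 treatments and fell in 8. In vehicle it was 16.1, 19.7 and 15.9 CPM in batch 1 and 30.5 to 44.7 CPM in batch 2 (median 34.7), so the batches differed in level. With caffeine at 10000 µM it was 337, 367 and 411 CPM in batch 1 and 513, 410 and 485 CPM in batch 2. The L2FC was 4.16 ± 0.14, a 17.9-fold rise with an adjusted p of 6.0e-63, and 4.65 and 3.82 within the batches. Ranitidine at 4000 µM also raised it, to 81.9, 86.7 and 89.4 CPM and 108, 96.5 and 124 CPM (L2FC 2.00 ± 0.14). All of these wells were above all vehicle wells of their batch. Ketoconazole at 15 µM (0.88 ± 0.14), isoniazid at 10000 µM (0.73 ± 0.14), chloramphenicol at 450 µM (0.55 ± 0.14) and simvastatin at 60 µM (0.51 ± 0.14) gave smaller rises. The call was lost without replicate 3 for chloramphenicol (adjusted p = 0.0616) and without replicate 2 for simvastatin (0.0608). These 2 rises also lost the call with the rat as the replicate (adjusted p = 0.0624 and 0.0962), while 4 rises and 7 of the 8 falls remained.

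Apoa5 fell where Mttp rose in several treatments. With WY14643 it was 7.80, 5.80 and 6.66 CPM in batch 1 and 12.6, 9.53 and 11.1 CPM in batch 2 at 8 µM (L2FC -1.31 ± 0.17), and -1.33 ± 0.16 at 200 µM. With naproxen at 2000 µM it was 6.86, 5.95 and 4.68 CPM and 8.65, 10.6 and 8.89 CPM (L2FC -1.79 ± 0.17, adjusted p = 3.9e-19). The wells of these 3 treatments lay below all vehicle wells of their batch. Indomethacin at 300 µM (-1.03 ± 0.16), sulfasalazine at 100 µM (-0.84 ± 0.16), valproic acid at 400 µM (-0.56 ± 0.15) and valproic acid at 10000 µM (-1.03 ± 0.16) were further falls in treatments that raised Mttp. With the rat as the replicate, the fall of Apoa5 with valproic acid at 400 µM lost its call, as did the rise of Mttp with valproic acid at 10000 µM. Both genes fell with diclofenac at 400 µM (Apoa5 -1.51 ± 0.16). Across 58 group means (28 treatments and medium in each batch, centred within the batch), Pearson's r between Apoa5 and Mttp was -0.43, a description over points that share wells and depth.

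Apoc2, the activator of lipoprotein lipase, rose in 7 treatments and fell in 6 in the test over wells, and with the rat as the replicate 1 of the rises (sulfasalazine at 100 µM) and 5 of the falls remained called. In vehicle it was 238, 228 and 203 CPM in batch 1 and 146 to 201 CPM in batch 2 (median 160). With diclofenac at 400 µM it was 12.2, 19.2 and 16.3 CPM and 23.0, 15.1 and 12.2 CPM, a 12.4-fold fall (L2FC -3.64 ± 0.24, adjusted p = 9.0e-32). With ranitidine at 4000 µM it was 22.6, 17.9 and 18.9 CPM and 28.1, 43.2 and 23.0 CPM (L2FC -2.77 ± 0.22). These wells were all below vehicle, as were those of valproic acid at 10000 µM (-1.98 ± 0.21), ketoconazole at 15 µM (-1.11 ± 0.20) and caffeine at 10000 µM (-0.63 ± 0.20). Isoniazid at 10000 µM gave -0.60 ± 0.20, -1.11 in batch 1 and -0.24 in batch 2, and the call was lost without replicate 1 or 3.

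The rises of Apoc2 stayed under 2-fold. Sulfasalazine at 100 µM gave 370, 428 and 449 CPM in batch 1 and 253, 264 and 247 CPM in batch 2 (L2FC 0.97 ± 0.19). Naproxen at 80 µM gave 325, 383 and 328 CPM and 290, 294 and 354 CPM (0.92 ± 0.19). Sulfasalazine at 100 µM had an adjusted p of 0.0241 with the rat as the replicate, and the other rises ran from 0.0503 with WY14643 at 8 µM to 0.480 with indomethacin at 12 µM. Indomethacin at 12 µM gave 0.81 ± 0.19 and WY14643 gave 0.71 ± 0.19 at 8 µM and 0.56 ± 0.19 at 200 µM; only the first of these had wells wholly above vehicle in both batches. With valproic acid at 400 µM the wells ran from 169 to 400 CPM in batch 1 and from 176 to 394 CPM in batch 2, and the L2FC of 0.56 ± 0.19 became 0.17 (adjusted p = 0.588) without replicate 1. Against vehicle wells of the same plate, which for these treatments left batch 2 only, indomethacin at 12 µM (0.69, adjusted p = 0.123) and WY14643 at 200 µM (0.51, 0.105) lost their calls. With library totals the latter was 0.32 (0.149). Indomethacin at 300 µM (0.45 ± 0.19) also overlapped vehicle in both batches and was lost without replicate 2, without replicate 3 (there on the sign in 1 batch), without vehicle replicate 1 of batch 2 and with library totals (0.29, adjusted p = 0.214). Against vehicle wells of the same plate it was 0.02 (adjusted p = 0.959), where the plate of batch 1 that held no vehicle was left out. The WY14643 calls were both lost without replicate 2 (adjusted p = 0.0548 at 8 µM and 0.0912 at 200 µM). Naproxen differed by concentration, since the contrast of 2000 against 80 µM was -1.19 ± 0.22 (adjusted p = 1.0e-06).

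Apoc3, the apolipoprotein that restrains clearance of triglyceride-rich particles, rose in 3 treatments and fell in 7. Its vehicle wells held 223, 265 and 182 CPM in batch 1 and 357 to 505 CPM in batch 2 (median 431). It came to 32.5, 59.0 and 52.0 CPM and 148, 119 and 108 CPM with diclofenac at 400 µM, below vehicle in both batches (L2FC -2.14 ± 0.17, a 4.39-fold fall). Valproic acid at 10000 µM (-1.18 ± 0.16), ketoconazole at 15 µM (-1.15 ± 0.16), ranitidine at 4000 µM (-0.79 ± 0.16), isoniazid at 10000 µM (-0.75 ± 0.16), naproxen at 2000 µM (-0.73 ± 0.16) and chloramphenicol at 450 µM (-0.63 ± 0.16) followed. The rises were 0.60 ± 0.15 with simvastatin at 60 µM, 0.47 ± 0.16 with valproic acid at 400 µM and 0.42 ± 0.16 with WY14643 at 8 µM. The last was 0.71 in batch 1 and 0.17 in batch 2, and it was 0.14 with library totals (adjusted p = 0.408). Against vehicle wells of the same plate it was also 0.14 (0.606), but that setting held only its batch 2 wells and so is no separate check from the batch 2 value. The call for valproic acid at 400 µM and that for WY14643 at 8 µM were both lost without replicate 2. Of these calls, 1 rise (simvastatin) and 6 falls remained with the rat as the replicate.

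**Figure D2:**
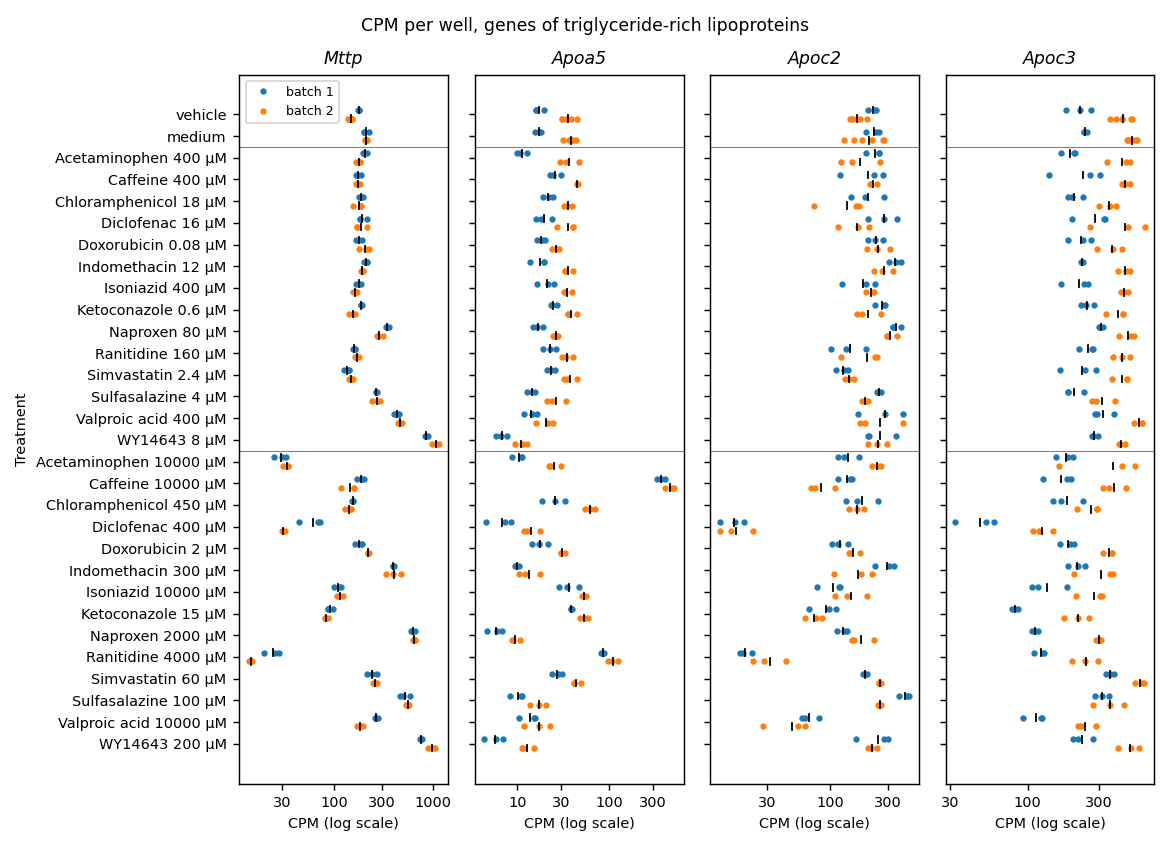
CPM per well on a log scale for Mttp, Apoa5, Apoc2 and Apoc3 (panels) in vehicle, medium, low and high concentrations (rows from top), with blue points for batch 1, orange points for batch 2 and black ticks for group means. Mttp under WY14643 at 8 µM (821 to 1127 CPM) and Apoa5 under caffeine at 10000 µM (337 to 513 CPM) stand apart from their vehicle wells.

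Apoa1, the main protein of high-density lipoprotein, fell in 12 of the 14 high concentrations in the WT assay, which called it in no low concentration and never higher. The ST assay called 2 low concentrations lower as well, doxorubicin at 0.08 µM (L2FC -0.37, adjusted p = 0.0349, against -0.26 and 0.339 in WT) and WY14643 at 8 µM (-0.25, 0.0464, against -0.14 and 0.314). Sulfasalazine at 100 µM and simvastatin at 60 µM were the high concentrations without a call. Its vehicle wells were 12017, 13056 and 10529 CPM in batch 1 and 10076 to 12924 CPM in batch 2 (median 12021), so both rats had a like level. Diclofenac at 400 µM gave 1406, 2265 and 1935 CPM and 1818, 1586 and 1420 CPM, a 7.69-fold fall (L2FC -2.94 ± 0.13, adjusted p = 1.1e-49). Ranitidine at 4000 µM gave 3345, 4159 and 2766 CPM and 2901, 2896 and 2850 CPM (-1.87 ± 0.12). The other falls ran from -1.71 ± 0.12 with naproxen at 2000 µM to -0.57 ± 0.12 with WY14643 at 200 µM. In all 12, every treated well lay below every vehicle well of its batch, and all 12 remained called with the rat as the replicate. The contrast of high against low concentration was also called lower for these 12 chemicals.

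Apom, the carrier of sphingosine-1-phosphate on high-density lipoprotein, fell in 9 of the high concentrations and rose in 1. Vehicle wells were at 28.6, 31.1 and 25.9 CPM in batch 1 and 30.0 to 42.5 CPM in batch 2 (median 34.7). With diclofenac at 400 µM it was 1.05, 5.97 and 3.26 CPM and 6.61, 4.02 and 5.76 CPM, all below vehicle (L2FC -2.96 ± 0.16, a 7.78-fold fall). Ranitidine at 4000 µM (-2.06 ± 0.15), caffeine at 10000 µM (-1.94 ± 0.15) and ketoconazole at 15 µM (-1.78 ± 0.14) lowered it by more than 3-fold. With caffeine its wells were 5.75, 4.24 and 5.91 CPM and 9.54, 10.3 and 9.84 CPM, in the same wells in which Apoa5 was at its 17.9-fold rise. Doxorubicin at 2 µM was the rise, with 32.3, 28.6 and 33.4 CPM in batch 1, which overlapped vehicle, and 58.8, 54.5 and 60.9 CPM in batch 2, which did not (0.46 ± 0.13, adjusted p = 0.00363). This rise lost its call with the rat as the replicate (adjusted p = 0.235), and all 9 falls remained.

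Apoa2, the other main protein of high-density lipoprotein, rose in 13 treatments and fell in 2, and in 7 of these rises Apoa1 fell. With the rat as the replicate, 6 rises and 1 fall remained called, and none of the rises lost had an adjusted p under 0.0866 (naproxen at 80 µM 0.107, indomethacin at 12 µM 0.480 and ketoconazole at 0.6 µM 0.906 among them). Vehicle wells gave 15.5, 14.4 and 21.3 CPM in batch 1 and 36.4 to 66.3 CPM in batch 2 (median 45.8). With acetaminophen at 10000 µM it was 86.0, 70.4 and 72.9 CPM and 283, 241 and 292 CPM, far above vehicle in both rats (L2FC 2.79 ± 0.19, a 6.91-fold rise, adjusted p = 4.6e-31). Chloramphenicol at 450 µM (1.28 ± 0.19), WY14643 at 200 µM (1.15 ± 0.19) and sulfasalazine at 100 µM (1.02 ± 0.19) also gave wells wholly above vehicle. Diclofenac at 400 µM lowered it (-1.38 ± 0.21), and the small fall with caffeine at 10000 µM (-0.45 ± 0.21, adjusted p = 0.0483) overlapped vehicle in both batches and was -0.24 without replicate 3. That call was also lost without vehicle replicates 1 or 3 of batch 1 and 2, 3 or 5 of batch 2, at adjusted p from 0.0529 to 0.0917. The rises with doxorubicin at 2 µM (0.67 ± 0.19) and sulfasalazine at 4 µM (0.65 ± 0.19) were lost without replicate 2, at adjusted p = 0.0505 and 0.0780.

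Medium without DMSO is a second reference for these rises. In medium alone, Apoa2 was 21.7, 23.5 and 22.7 CPM in batch 1 and 55.6 to 107 CPM in batch 2, where it overlapped vehicle, and it was higher than in vehicle by 0.68 ± 0.17 (adjusted p = 0.00247), and Mttp was 200, 201 and 224 CPM and 204 to 214 CPM, higher by 0.51 ± 0.09 (4.9e-06). These were the 2 of 8 genes called higher in medium, with 0 called lower (7.35% and 5.07% of all genes), where edgeR gave 3 of 8 an unadjusted p under 0.05 and DESeq2 called 2. With the rat as the replicate neither was called (adjusted p = 0.521 and 0.444). The 5 rises of Apoa2 at low concentrations, from 0.65 with sulfasalazine at 4 µM to 0.95 with naproxen at 80 µM, were thus near the difference between medium and vehicle. Set against medium wells, Apoa2 was called higher in 3 treatments (acetaminophen at 10000 µM, 2.11, chloramphenicol at 450 µM, 0.60, and WY14643 at 200 µM, 0.47) and lower in 8. Mttp was called higher in 8 treatments and lower in 13 against medium, and its L2FC with WY14643 at 8 µM was 2.38. Against medium, Apoc3 was called higher in 0 treatments and lower in 11, Apoc2 higher in 3 and lower in 10, Apoa5 higher in 5 and lower in 10, Apom higher in 1 and lower in 9, and Apoa1 and Apoe higher in 0 and lower in 17 each. The share of all genes called against medium was not computed, so these counts have no background to be read against. The treated wells all held 0.5% DMSO, as the vehicle did.

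Apoe, the receptor ligand on most lipoproteins, fell in 10 treatments and rose in 1, and with the rat as the replicate 8 falls and 0 rises remained called (edgeR adjusted p = 0.0881 for the rise). In vehicle it was 6850, 6730 and 5566 CPM in batch 1 and 7490 to 9603 CPM in batch 2 (median 8561). Diclofenac at 400 µM gave 1676, 2469 and 1985 CPM and 3071, 2402 and 2227 CPM, a 3.61-fold fall (L2FC -1.85 ± 0.11). Chloramphenicol at 450 µM (-1.05 ± 0.10) and valproic acid at 10000 µM (-1.02 ± 0.10) lowered it about as far as each other, and 5 other high concentrations gave -0.82 to -0.45 with wells wholly below vehicle. The falls with indomethacin at 300 µM (-0.30 ± 0.10) and WY14643 at 8 µM (-0.25 ± 0.10) reached -0.41 and -0.43 in batch 2 by itself, but -0.05 and -0.02 in batch 1. Both lost the call without vehicle replicate 6 of batch 2 (adjusted p = 0.0599 and 0.0726), the first also without replicate 1 and the second without replicate 2 or 3. The WY14643 call was further lost, on the sign in batch 1, without vehicle replicate 1 or 2 of that batch. The rise with acetaminophen at 10000 µM (0.22 ± 0.10, adjusted p = 0.0387) overlapped vehicle in both batches. It was lost without vehicle replicate 3 of batch 1 or 2 of batch 2, at 0.18 and 0.20, and without replicate 2 or 3, and it turned to -0.19 when library totals took the place of TMM factors, a change of scale that moved all genes of that treatment by -0.42 on average.

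**Figure D3:**
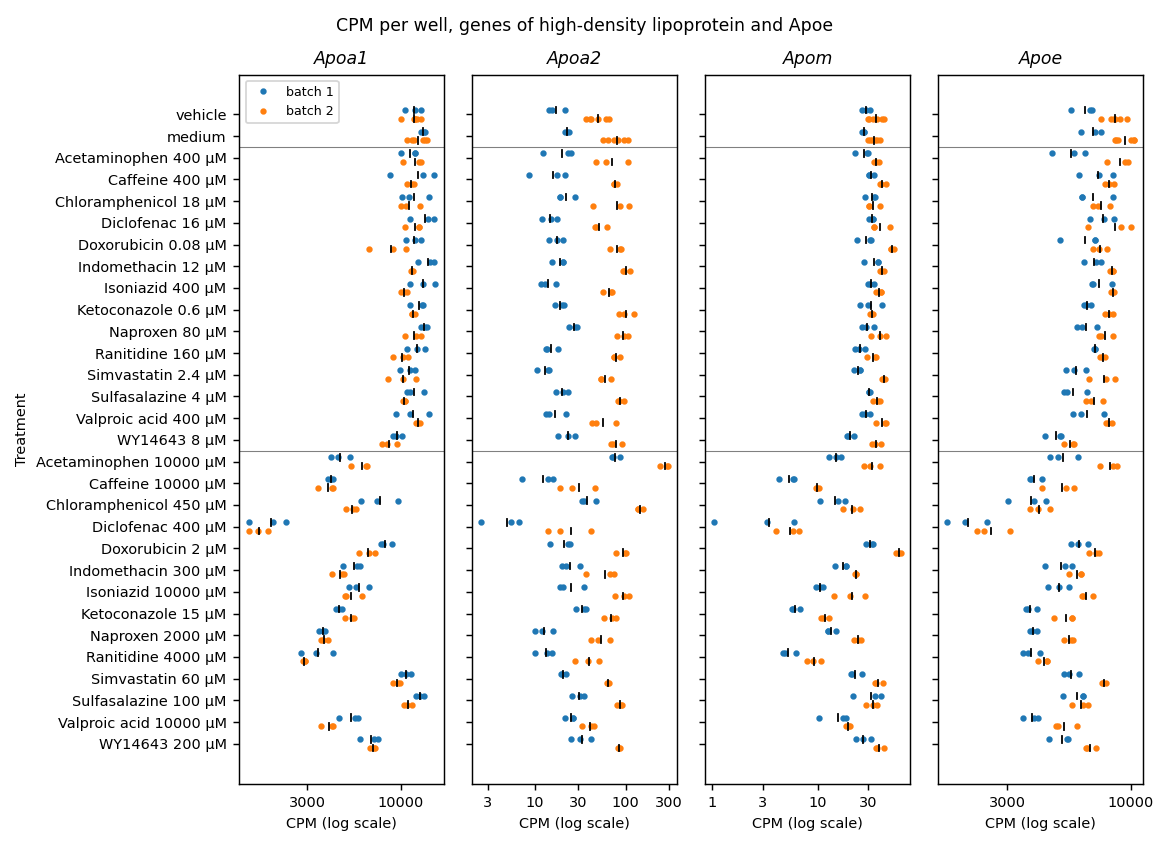
CPM per well on a log scale for Apoa1, Apoa2, Apom and Apoe (panels) in vehicle, medium, low and high concentrations (rows from top), with blue points for batch 1, orange points for batch 2 and black ticks for group means. Apoa1 under diclofenac at 400 µM (1406 to 2265 CPM) lies below vehicle (10076 to 13056 CPM), and Apoa2 differs in level between batches.

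The treatments differed in how many of the 8 genes they changed and in which direction. Diclofenac at 400 µM lowered all 8 genes and raised 0, where 35.1% of all genes were called lower and 35.0% higher, and the median L2FC of the 8 genes was -2.03 beside 0.01 over all genes. Ketoconazole at 15 µM lowered 6 and raised 2 (26.0% and 24.4% of all genes). Isoniazid at 10000 µM also lowered 6 and raised 2 (17.2% lower and 17.2% higher over all genes). In both, the rises were Apoa2 and Apoa5. Ranitidine at 4000 µM lowered 6 and raised 1, Apoa5 (33.0% and 31.1%). Valproic acid at 10000 µM lowered 6 and raised 1, Mttp (32.6% and 32.6%). Naproxen at 2000 µM lowered 5 and raised 1, Mttp (25.9% and 27.2%). Caffeine at 10000 µM lowered 5 and raised 1, Apoa5 (31.1% and 33.4%). Chloramphenicol at 450 µM lowered 4 and raised 2, Apoa2 and Apoa5 (17.0% and 15.9%). Indomethacin at 300 µM lowered 4 and raised 3, Apoa2, Apoc2 and Mttp (27.3% and 26.5%).

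The remaining high concentrations lowered fewer of the genes. Acetaminophen at 10000 µM lowered 2, Apoa1 and Mttp, and raised 2, Apoa2 and Apoe (39.7% and 38.2% of all genes). WY14643 at 200 µM lowered Apoa1 and Apoa5 and raised Apoa2, Apoc2 and Mttp (25.2% and 25.8%). Doxorubicin at 2 µM lowered Apoa1 and raised Apoa2, Apom and Mttp (10.1% and 8.93%). Sulfasalazine at 100 µM lowered Apoa5 and raised Apoa2, Apoc2 and Mttp (19.3% and 20.4%). Simvastatin at 60 µM lowered 0 and raised 3, Apoa5, Apoc3 and Mttp (12.4% and 11.3%). For simvastatin, edgeR gave 4 of the 8 genes an unadjusted p under 0.05, and DESeq2 called 3. With the rat as the replicate, doxorubicin at 2 µM kept 1 of its 4 calls, the fall of Apoa1, and 0 of the 3 rises, while indomethacin kept 4 of 7, chloramphenicol 4 of 6, simvastatin 2 of 3 and acetaminophen 3 of 4. Diclofenac, ketoconazole, naproxen, ranitidine and sulfasalazine kept all of theirs, and the other 4 high concentrations lost 1 or 2 each. Of the 6 measured hepatocyte markers, diclofenac at 400 µM, ranitidine at 4000 µM and valproic acid at 10000 µM lowered all 6, ketoconazole, isoniazid and naproxen lowered 5 each, and sulfasalazine and WY14643 at 200 µM lowered 0. Sulfasalazine at 100 µM raised 4, simvastatin at 60 µM raised 3 and lowered 1, and WY14643 at 200 µM raised 2. Caffeine at 10000 µM lowered 4 and raised 1 (Fgb 2.09), and chloramphenicol at 450 µM lowered 4 and raised 0. Indomethacin at 300 µM lowered 3 of the markers and raised 1, and doxorubicin at 2 µM lowered 2 and raised 1. Acetaminophen at 10000 µM lowered 2 of them (Fgb -2.36 and Hp -1.23) and raised 1 (Serpina1 0.53). The summed level of the 6 Kupffer cell markers was 37.7 to 45.9 CPM in vehicle wells of batch 1 and 26.2 to 36.3 CPM in those of batch 2, against 4.14 to 8.01 CPM over both batches with doxorubicin at 2 µM and 5.64 to 14.6 CPM with caffeine at 10000 µM, with Marco at 0.910 CPM and Adgre1 at 0.717 CPM in vehicle. The 6 stellate cell and fibroblast markers summed to 110 to 167 CPM in vehicle wells of batch 1 and 34.6 to 50.7 CPM in those of batch 2, against 11.2 to 18.2 and 3.22 to 4.50 CPM with doxorubicin at 2 µM, 31.2 to 41.4 and 9.41 to 12.2 CPM with caffeine at 10000 µM, and 23.1 to 44.5 and 11.2 to 17.3 CPM with acetaminophen at 10000 µM. The 5 endothelial markers summed to 1.67 to 3.81 CPM in vehicle wells over both batches and 0 to 0.482 CPM with doxorubicin at 2 µM. The 5 biliary markers summed to 37.7 to 50.6 CPM in vehicle wells and 6.81 to 10.5 CPM with diclofenac at 400 µM, and to 51.0 to 77.2 CPM with valproic acid at 10000 µM, above the vehicle wells in both batches. These were not the only treatments with such differences. Of the 14 high concentrations, every treated well was below every vehicle well of its batch, in both batches, in 12 for the hepatocyte sum, 7 each for the Kupffer and the stellate and fibroblast sums, 6 for the endothelial sum and 5 for the biliary sum, with indomethacin at 300 µM and naproxen at 2000 µM among those of all 5 lists. Ranitidine at 4000 µM and valproic acid at 10000 µM were among those of all lists but the biliary. Of the 14 low concentrations, 4 were wholly below vehicle for the biliary sum and 0 for the other sums, and 2 were wholly above it for the hepatocyte sum. These sums are CPM without TMM factors, while the calls on single markers used them. WY14643 at 200 µM was among the 12 for the hepatocyte sum although it lowered 0 of these markers and raised 2 (Alb 0.30 and Fgb 0.75). Library totals in place of TMM factors moved all its genes by -0.25 on average, and those of acetaminophen at 10000 µM by -0.42. The part of hepatocyte or other cell markers in the changes of the 8 genes was not tested.

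At low concentrations, WY14643 at 8 µM raised 4 genes (Mttp, Apoa2, Apoc2 and Apoc3) and lowered 2 (Apoa5 and Apoe), where 27.4% of all genes were called higher and 27.8% lower. Valproic acid at 400 µM raised Mttp, Apoc2 and Apoc3 and lowered Apoa5 (14.9% and 13.9%). Naproxen at 80 µM raised Mttp, Apoa2 and Apoc2 and lowered 0 (8.56% and 7.37%). Indomethacin at 12 µM raised the same 3 genes and lowered 0 (3.47% and 2.34%). Sulfasalazine at 4 µM raised Mttp and Apoa2 and lowered 0 (9.27% and 8.02%). Ketoconazole at 0.6 µM raised Apoa2 and lowered 0 (0.844% and 0.775%), and that call was lost without replicate 2 or 3. In these 4 treatments edgeR gave 4, 4, 4 and 3 of the 8 genes an unadjusted p under 0.05, and DESeq2 called 3, 3, 2 and 1. With the rat as the replicate, WY14643 at 8 µM kept 3 of its 6 calls, valproic acid 1 of 4 and naproxen 1 of 3, and indomethacin, sulfasalazine and ketoconazole kept 0. At the other 8 low concentrations edgeR called 0 of 64 pairs, with 12 pairs at an unadjusted p under 0.05 and 0 called by DESeq2.

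The direct contrast of high against low concentration called 61 of 112 pairs lower at the high concentration and 16 higher, where 20.4% of pairs over all genes were lower and 19.8% higher. Apoa1 was lower for 12 of the 14 chemicals, Apoe and Apom for 9 each, Apoc2 for 8, Apoc3 and Mttp for 7 each, Apoa5 for 5 and Apoa2 for 4. Mttp and Apoa5 were each higher at the high concentration for 4 chemicals. For Apoa5 these were caffeine (3.76 ± 0.17), ranitidine (1.86 ± 0.16), isoniazid (0.66 ± 0.16) and ketoconazole (0.56 ± 0.16). For Mttp they were sulfasalazine, indomethacin, simvastatin (0.93 ± 0.11) and naproxen.

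The batches moved alike in all but 1 of the pairs past the adjusted p. The exception was Apoc2 with acetaminophen at 10000 µM, at -0.24 in batch 1 and 0.97 in batch 2, which was not called. The difference between batches had an adjusted interaction p under 0.05 in 11 of 232 pairs (medium included), 10 of them under 1 on the log2 scale.

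**Figure D4:**
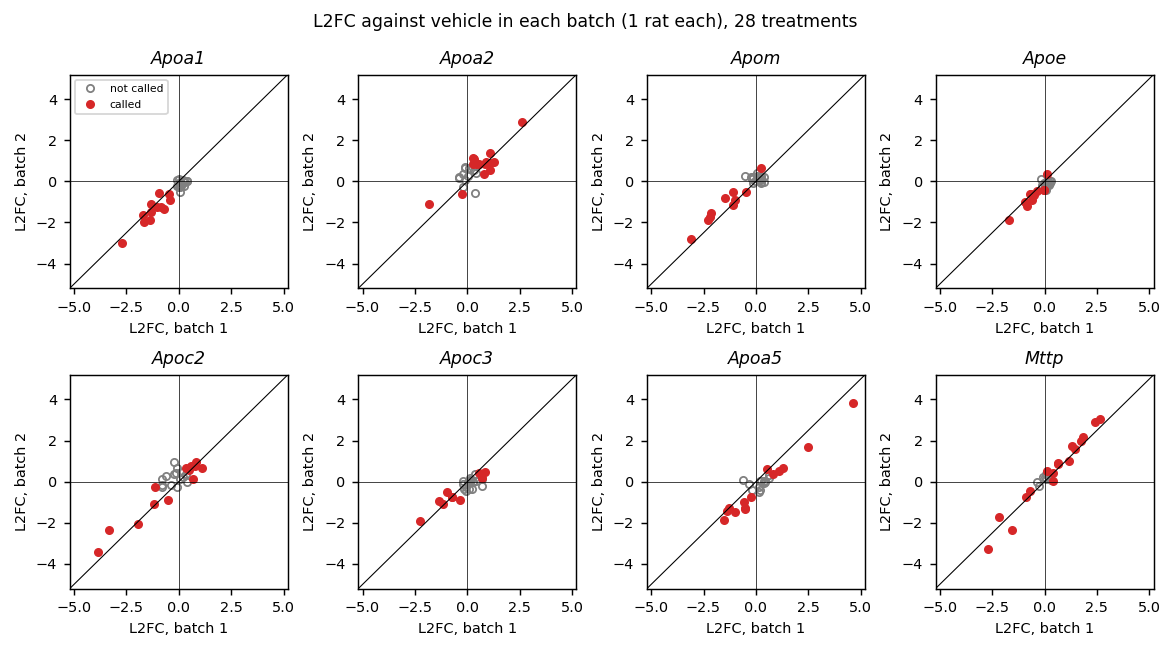
L2FC in batch 2 (y) against L2FC in batch 1 (x) for each of the 8 genes over the 28 treatments, with red points for called pairs, open grey points for the others and a diagonal of equality. The point for Apoa5 under caffeine at 10000 µM lies at 4.65 and 3.82, and that for Mttp under ranitidine at 4000 µM at -2.70 and -3.27.

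The ST assay gave like changes for the 5 genes it held. For Apoe it used another probe than the WT assay, and for the other genes the same probe number. Over these 5 genes, 58 WT pairs were called (18 higher and 40 lower), and the ST assay called 12 of 12 for Apoa1, 12 of 15 for Apoa2, 9 of 10 for Apoc3, 11 of 11 for Apoe and 10 of 10 for Apom, all in the same direction. The calls not made by the ST assay were Apoa2 with indomethacin at 12 and 300 µM and caffeine at 10000 µM, and Apoc3 with simvastatin at 60 µM (0.60 in WT, 0.26 in ST). The ST assay alone called 7 further pairs, 2 for Apoa1 at the low concentrations given above, Apoe with simvastatin at 60 µM (-0.34), and Apom with simvastatin at 60 µM (-0.33), doxorubicin at 0.08 µM (0.43), sulfasalazine at 100 µM (0.32) and WY14643 at 200 µM (0.41). The median absolute difference in L2FC between assays was 0.06 to 0.13 by gene, and the largest was 0.47, for Apoc3 with ranitidine at 4000 µM. Both assays read lysate of the same wells, so the ST values check the measurement and not the biology.

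**Figure D5:**
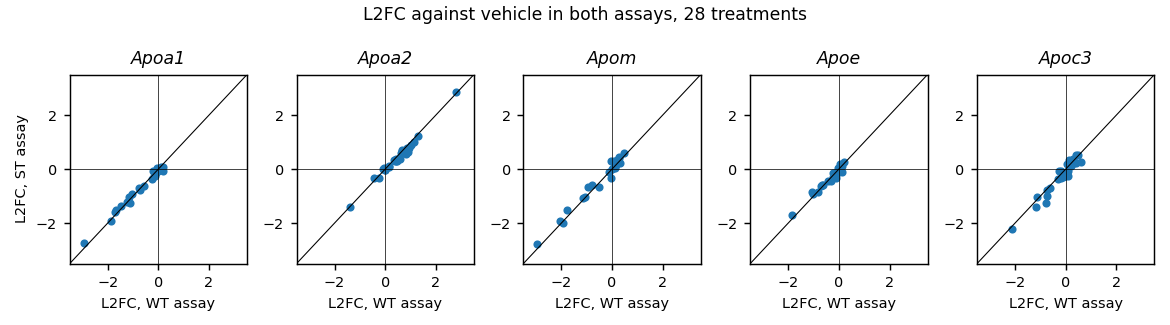
L2FC against vehicle in the ST assay (y) and in the WT assay (x) for Apoa1, Apoa2, Apom, Apoe and Apoc3 over the 28 treatments, with a diagonal of equality. The points lie near the diagonal, and Apoa2 under acetaminophen at 10000 µM lies at 2.79 in WT and 2.84 in ST.

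The 8 genes together took 1.89% ± 0.198 (SD, n = 3) of all counts in vehicle wells of batch 1 and 2.13% ± 0.169 (SD, n = 6) in batch 2, most of it counts of Apoa1 and Apoe. With diclofenac at 400 µM the share was 0.405% ± 0.0862 and 0.439% ± 0.0686 (SD, n = 3 each), and with ranitidine at 4000 µM 0.747% ± 0.102 and 0.763% ± 0.0234. With WY14643 at 8 µM, where Mttp was at its 7.41-fold rise, the share was 1.58% ± 0.0714 and 1.60% ± 0.0998. The shares use no TMM factors, and library totals in place of these factors moved all genes of this treatment by -0.29 on average. With TMM, Apoa1 was not called there (L2FC -0.14, edgeR adjusted p = 0.314).

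Other genes of lipoprotein metabolism, from lists set by function, moved in both directions. Among other apolipoproteins, 5 of 6 were tested and 32 of 140 pairs were higher and 37 lower (22.9% and 26.4%, beside 14.8% each way over all genes). Apon was called most often (9 higher and 9 lower), from -4.29 with diclofenac at 400 µM to 1.67 with WY14643 at 8 µM. Apoh, a phospholipid-binding plasma protein, had 7 higher and 8 lower, and Apoc1, an inhibitor of lipoprotein uptake, 7 and 7, with a rise of 1.77 under acetaminophen at 10000 µM and a fall of 1.81 on the log2 scale under diclofenac at 400 µM (-1.81). Among assembly and secretion partners all 10 were tested, with 59 of 280 pairs higher and 47 lower (21.1% and 16.8%, beside the same 14.8% each way). Sar1b, a GTPase of the vesicles that carry lipoproteins out of the endoplasmic reticulum, rose in 11 treatments and fell in 3. Mia2, a cargo receptor at endoplasmic reticulum exit sites, rose in 9 and fell in 4, and Soat2, which makes cholesterol esters, rose in 10 and fell in 3. With WY14643 at 200 µM these genes were at 1.53, 1.67 and 1.33, in the treatment in which Mttp was at 2.70.

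Among receptors, lipases and remodelling genes, 8 of 12 were tested, with 41 of 224 pairs higher and 63 lower (18.3% and 28.1%, beside 14.8% each way over all genes). Vldlr, the very-low-density lipoprotein receptor, rose in 9 and fell in 7. Among regulators, 9 of 10 were tested, with 60 of 252 pairs higher and 47 lower (23.8% and 18.7%, beside the same 14.8%). Ppara rose in 8 and fell in 7, Foxo1 rose in 9 and fell in 6, and Srebf1 rose in 10 and fell in 6. With WY14643 at 200 µM, 8 of the 9 regulators were higher (25.8% of all genes), and with acetaminophen at 10000 µM 8 were lower (39.7% of all genes).

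The genes with the most similar patterns were looked for over the same 58 group means, as a description. For Apoa1 they were Pglyrp2 and C8b (Pearson's r = 0.94 each), for Apoa2 Pon1 (0.87) and Mcur1 (0.85), for Apom Smim24 (0.94) and Ggact (0.93), and for Apoe Alb and Ambp (0.92 each). For Apoc2 they were Apoh (0.94) and Amy1a (0.91), for Apoc3 Serpinc1 (0.92) and Hp (0.90), for Apoa5 Vps36 (0.88) and Ass1 (0.87), and for Mttp Hsd17b10 (0.95) and Slc10a5 (0.94). Within the set, Apoa1 was nearest to Apoe (0.89), while the nearest member to Apoa5 was Apoc3 at 0.04.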

How the data were processed

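TempO-Seq libraries were made from 186 wells of primary rat hepatocytes, each run on the WT (22253 probes) and ST (2654 probes) assays. The authors aligned reads to rn6 with STAR 2.5.3a and deposited raw counts per probe and well, without normalization. STAR and rn6 are credited to the submitters' processing notes. All values were whole numbers and no 2 wells were identical. Counts of probes of 1 symbol were summed, and CPM per well used the total of all probes. The probe columns were matched to genes by symbol.

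Counts were tested in R 4.3.3 with edgeR 4.0.16 (quasi-likelihood test, TMM) over all 186 WT wells, with treatment and batch as terms, a mean of at least 10 counts and Benjamini-Hochberg adjustment over 10191 genes of a comparison. A pair was called at an adjusted p under 0.05 with the same sign of the mean log2 CPM difference in both batches. SE is the L2FC size over the root of F. Alternatives included DESeq2 1.42.0, other scalings, each batch alone, wells summed per rat and leaving out wells. On simulated data, 94.5% of 200 genes changed 2-fold in 1 treatment were recovered among 10191 genes, with 8 false calls. The simulated wells were independent, with the spread of vehicle wells. They held no plate effect and no difference between rats in the response to treatment, so the rate of false calls under those was not tested.

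Named list genes were the 3 of each list called in most treatments (ties by larger L2FC), and some of the receptor and lipase list that met this rule are not reported here. Patterns were compared on log2 CPM with a prior count of 1. The members and lists were chosen with earlier results of these data known. Promoters come from RefSeq GRCr8, which differs from the build of the counts and was used for sequence and gene order only. CPM are relative to all counts of a well, and 1 probe per gene does not compare levels between genes.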

Additional observations from a re-analysis of the deposited data

Results flagged for a closer look

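The effect of acetaminophen at 10000 µM on Apoc2 differed between the batches by the interaction test. The L2FC of batch 2 minus batch 1 was 1.22 (adjusted p = 0.0148), from -0.24 in batch 1 and 0.97 in batch 2, and the pooled L2FC was 0.47. Each batch is 1 rat, so rat, plate and preparation cannot be told apart. Among 232 interactions tested for the 8 genes, 11 had an adjusted p under 0.05, and this was the 1 with a difference of at least 1. No vehicle or medium well of batch 2 stood apart from the other 5 wells of its group by Dixon's test at 95%, for any of the 8 genes (16 tests).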

How the results depend on the processing

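With the rat as the replicate, calls higher than vehicle fell from 43 to 20 and calls in medium from 2 to 0. Batch 1 by itself also gave 0 calls in medium. With an absolute L2FC of at least 1 required, 13 pairs were higher, 35 lower, 0 in medium and 42 of the 77 pairs of high against low concentration. Against medium wells in place of vehicle, an alternative chosen after seeing the data, 20 pairs were higher and 95 lower, with no share over all genes computed. There, 6 called values turned sign, namely Apoa2 with doxorubicin at 2 µM (-0.02), sulfasalazine at 4 µM (-0.04) and indomethacin at 300 µM (-0.09), and Mttp with indomethacin at 12 µM (-0.07), doxorubicin at 2 µM (-0.17) and valproic acid at 10000 µM (-0.26). With library totals, Apoe with acetaminophen at 10000 µM was -0.19; TMM and library totals differed by -0.42 to 0.26 in the mean of all genes by treatment. Leaving out 1 replicate number or control well at a time gave 32 to 45 calls higher, 56 to 59 lower, 2 in medium and 66 to 68 of high against low, and leaving out the shallowest well of each batch, also chosen after seeing the data, gave 42, 59, 2 and 75. DESeq2 and RLE kept all 104 called values, medium included. Apart from the settings named, counts stayed within 1.5 times. The summed share without the 10 most abundant genes, Apoa1 among them, was 0.811% in batch 1 and 1.06% in batch 2 vehicle wells, and 1.81% to 2.00% and 2.09% to 2.19% with a well left out. Treatments and vehicle were compared within each rat in every fit of both batches, through the batch term. No paired analysis was possible within a batch because the labels give wells, not replicate numbers, and the same well number in different treatments marks no shared source beyond the batch. Depth limits Apoa2, Apoa5 and Apom most, with averages of 357.3, 274.5 and 185.5 counts per well.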
